A study of Homo sapiens with 24 samples.

Results

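The transcript response to interferon beta (IFN) after 8 h was examined in A549 cells depleted of BOP1. A549 is a human epithelial line from a lung adenocarcinoma, and BOP1 is a nucleolar protein needed to mature the large ribosomal subunit. All cells of this comparison carried a pool of BOP1 siRNAs for 48 h. After knockdown the cells received IFN at 1000 U/mL or a mock control for 8 h. Each group had 3 libraries of polyadenylated RNA, numbered 1, 2 and 4 in the deposited table. The series also holds cells given an siRNA against firefly luciferase (siFLuc, the control) and cells taken at 12 h, for 8 groups and 24 libraries in all. Genes were kept where at least 3 of the 6 libraries reached 1 TPM, a length-corrected share of each library's transcripts, which left 14273 of the 60609 genes in the table. No source used here says that the libraries came from separate cultures, so p-values measure the spread between these libraries, which may be technical. A knockdown of this kind leaves part of the target's RNA in place, and a pool of siRNAs gives no independent reagent.

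Type I IFN binds the IFNAR receptor, whose kinases JAK1 and TYK2 phosphorylate STAT proteins. These join IRF9 in the complex ISGF3, which binds the interferon-stimulated response element (ISRE) in the promoters of interferon-stimulated genes. The products of these genes sense viral nucleic acid, block viral replication, present antigen and restrain the signal itself.

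BOP1 stood at 18.0, 18.4 and 19.5 TPM in the mock libraries and at 16.6, 16.0 and 17.1 TPM in the IFN libraries. The 3 siFLuc mock libraries at 8 h held 66.1, 55.9 and 77.3 TPM, so that the mock cells analysed here kept 28.1% of the control mean. The IFN libraries were all a little below the mock libraries in BOP1, by -0.16 on the log2 scale (SE 0.18), and limma's adjusted p was 0.598. The two-sided exact permutation test gave p = 0.1, the smallest that 3 libraries against 3 allow.

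A change was called where limma's Benjamini-Hochberg adjusted p, over the 14273 genes, was under 0.05. All log2 changes are IFN minus mock on the log2(TPM + 1) scale, where changes of genes near 0 TPM come out too small. A bare number in parentheses after TPM values, or after "rose by" or "fell by", is such a log2 change. IFN raised 934 genes (6.54% of those tested) and lowered 1484 (10.4%). The rises were the larger changes: 480 genes (3.36%) rose by at least 1 on the log2 scale, 129 of them by 2 to 4, 46 by 4 to 6 and 17 by 6 or more. Of the falls, 1374 were smaller than 1 and only 3 reached 2. The median change was 1.01 among genes called higher and -0.59 among genes called lower. All 3 IFN libraries lay above all 3 mock libraries for 923 of the 934 rises, and below them for 1459 of the 1484 falls. Of the genes tested, 12683 reached 1 TPM in all 6 libraries, with 756 rises and 1364 falls among them. A further 127 passed the filter through the IFN libraries alone and 98 through the mock libraries alone, so that these had to differ in level. Over all tested genes, the groups were apart in this way for 10.6% with IFN above and 28.3% with IFN below.

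The number of falls depended on the scaling and on the block described here. The median change of all 14273 genes was -0.14. Rescaling each library by the median of its ratios, which brings that median to 0.00, gave 1308 rises (9.16%) and 715 falls (5.01%), so that rises made up 64.7% of the calls in place of 38.6%. A fit with the library number as a block gave 1342 rises (9.4%) and 3314 falls (23.2%). Without mock library 1 the count of falls was 827, and without IFN library 2 it was 824. Changes of named genes that rose or fell slightly are therefore given with their call after rescaling where that call differs. Where the block, rescaling or quantile normalization moves a list's count by over 1.5 times, the counts higher and lower under it follow in parentheses, in that order. The shares of 6.54% and 10.4% over all genes are the background for every list in the main fit. Counts in parentheses have the background of their own setting: 9.4% and 23.2% with the block, and 9.16% and 5.01% after rescaling. Quantile normalization gave 1113 rises and 1395 falls over the 14273 genes.

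**Figure D1:**
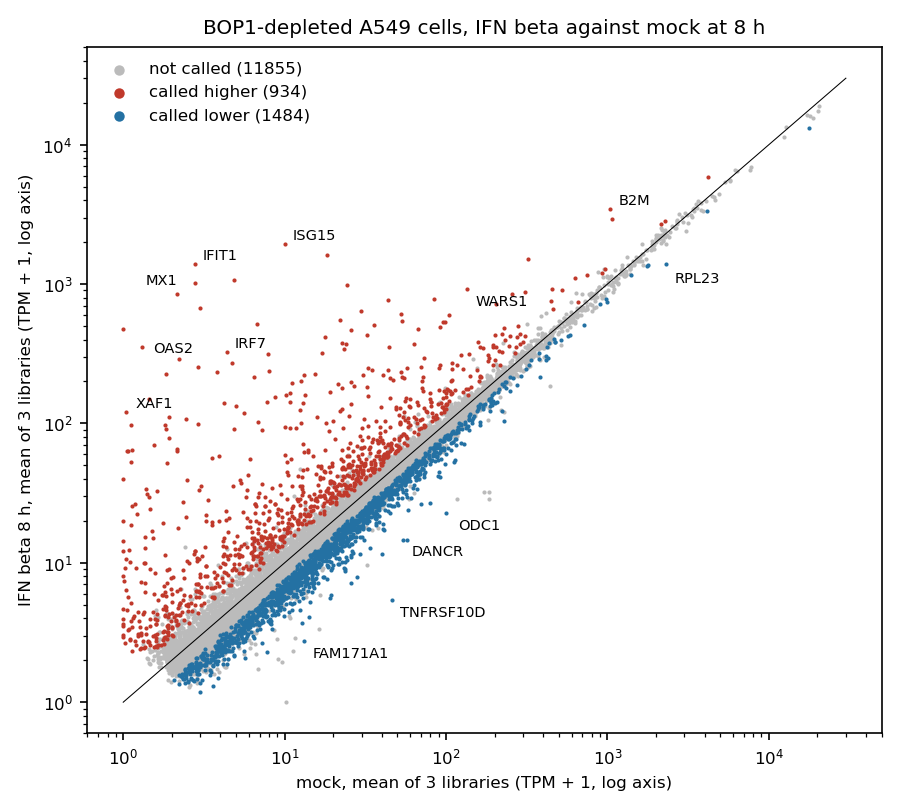
Mean TPM + 1 over 3 libraries in mock (horizontal, log axis) and IFN (vertical, log axis) for all 14273 tested genes of BOP1-depleted cells at 8 h, one point per gene. The 934 genes called higher (red) reach far above the diagonal of equal levels, while the 1484 called lower (blue) stay close beneath it.

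Promoter sequences of strongly raised genes were read for letters of the ISRE, the element that ISGF3 binds. The letters GAAA, any 2 bases, GAAA were searched on both strands in RefSeq windows from 250 bases before to 50 bases after the start of transcription (GRCh38.p14). The 10 largest rises with a match are shown with 30 bases around the match nearest to the start, 5′ to 3′ on the gene's strand. Capitals mark the 10 bases of the match. They read TTTC, 2 bases, TTTC where the element lies on the opposite strand. A match is a description of letters and was not tested for binding.
IFIT1: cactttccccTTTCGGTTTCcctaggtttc
MX1: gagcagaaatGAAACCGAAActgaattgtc
IFI27: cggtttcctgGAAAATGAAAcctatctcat
IFIT3: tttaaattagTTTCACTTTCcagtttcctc
ISG15: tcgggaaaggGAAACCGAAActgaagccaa
IFI44: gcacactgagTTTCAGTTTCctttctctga
IFI6: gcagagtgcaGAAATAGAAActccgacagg
IFITM1: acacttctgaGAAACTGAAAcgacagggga
IFIH1: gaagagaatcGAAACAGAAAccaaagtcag
TNFSF10: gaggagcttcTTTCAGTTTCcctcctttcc
The windows lie at chr10:89392510-89392539 (+, IFIT1), chr21:41420559-41420588 (+, MX1), chr14:94110631-94110660 (+, IFI27), chr10:89327865-89327894 (+, IFIT3), chr1:1013380-1013409 (+, ISG15), chr1:78649761-78649790 (+, IFI44), chr1:27672266-27672295 (-, IFI6), chr11:314024-314053 (+, IFITM1), chr2:162318686-162318715 (-, IFIH1) and chr3:172523598-172523627 (-, TNFSF10). Positions count from 1 on the chromosome. Relative to the start of transcription, with negative numbers before it, the first capital base lies at -103 (IFIT1), 11 (MX1), -95 (IFI27), -122 (IFIT3), -107 (ISG15), -18 (IFI44), -93 (IFI6), -6 (IFITM1), -21 (IFIH1) and -187 (TNFSF10). IFIT1, IFI27, IFIT3, ISG15 and IFITM1 hold 2 matches each in their window, IFI6 and IFIH1 hold 3, and MX1, IFI44 and TNFSF10 hold 1. No match with these letters was in the window of XAF1, CMPK2 or RSAD2. IFIT2, RNVU1-7, OAS2, OASL, TRIM22, MX2, IRF7 and IDO1, whose rises were of like size, were not searched.

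Among tested protein-coding genes, 81.2% had a window in the RefSeq table, and 2.85% of those windows (279 of 9786) held the element, beside 3.57% of all 35116 windows of the table. Of the genes called higher by less than 1 on the log2 scale, 22 of 336 windows (6.55%) held it. Of the genes called lower, 7 of 1077 (0.65%) did. Only 73.7% of the genes called higher by at least 1 had a window, under the 80% set for such a check, so no share is given for them. The letters TTC, any 3 bases, GAA, which mark the gamma-activated site bound by STAT dimers, were in 6.41% of the tested genes' windows, in 9.52% of those of the smaller rises and in 5.2% of those of the falls. A window can hold both motifs.

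The largest rise on the log2(TPM + 1) scale was that of IFIT1, whose protein binds viral RNA that lacks host cap methylation. The order of genes near 0 TPM in mock depends on the 1 that this scale adds. IFIT1 went from 1.93, 1.99 and 1.40 TPM in mock to 1384, 1436 and 1357 TPM under IFN, a log2 change of 8.98 (SE 0.34, limma's adjusted p = 9.43e-15). MX1, a GTPase that traps viral nucleocapsids, was at 1.42, 0.931 and 1.12 TPM in mock and at 896, 843 and 815 TPM under IFN, a change of 8.63 (SE 0.19). In both genes the lowest IFN library was far above the highest mock library. The 10 largest rises and falls were taken from genes whose groups do not overlap, so the gap between groups in them is a description. IFIT2, the partner of IFIT1 and IFIT3, stood at 1.71, 1.93 and 1.68 and then 1118, 1098 and 813 TPM (8.50). IFIT3 stood at 3.43, 3.97 and 4.18 and then 1115, 1128 and 974 TPM (7.79). In both, the IFN library numbered 4 was the lowest of its group and still far above mock.

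The oligoadenylate synthetases detect double-stranded RNA and make the messenger that switches on RNase L. OAS2 was nearly silent in mock at 0.143, 0.769 and 0.0320 TPM, and it reached 358, 363 and 342 TPM under IFN (8.12, SE 0.15). OASL, a member without synthetase activity that enhances RIG-I signalling, went from 1.02, 1.26 and 1.35 to 299, 291 and 274 TPM (7.03). All 9 tested members of the IFIT and OAS families were called higher, with a median change of 7.03 beside -0.14 over all genes. The GTPases of the MX and GBP families, which attack viral particles and the membranes around intracellular pathogens, were called higher in all 7 tested cases (median 5.34). MX2, which blocks nuclear import of retroviral capsids, rose by 6.45, GBP4 by 5.80 and GBP1 by 5.34. Members under 1 TPM in every mock library were tested through their IFN libraries alone and had to differ, so their calls add no support. These were 3 of the 7 MX and GBP genes, 1 of the 9 IFIT and OAS genes, 2 of 8 genes of ISG15 conjugation and 4 of 10 sensors. They were also 3 of 17 membrane and IFI effectors, 4 of 24 restriction factors and 4 of 20 chemokines and cytokines, and 1 or 2 genes in each of 7 other lists. Among the list genes named in this report, OAS2, MX2, GBP4, TLR3, SOCS1, CMPK2, RSAD2 and PARP10 were of this kind. So were APOL3, TNFSF13B, CXCL10, CXCL11, XAF1, TNFSF10, IDO1 and SERPING1.

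ISG15, a ubiquitin-like protein that is attached to other proteins and also secreted, stood at 12.2, 8.55 and 6.22 TPM in mock and 1895, 2013 and 1893 TPM under IFN (7.64, SE 0.24). All 8 genes of ISG15 conjugation and removal were called higher, from 2.47 to 7.64. HERC5, the main ligase for ISG15, went from 1.19, 1.62 and 1.51 to 115, 111 and 96.2 TPM (5.47). HERC6, its close relative, rose by 4.40. USP18, which removes ISG15 and also blocks signalling at the IFN receptor, went from 5.48, 7.45 and 8.13 to 233, 232 and 248 TPM (4.91).

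Of 17 membrane and IFI effectors, 15 were called higher and 0 lower. IFI27, a small mitochondrial protein used as a blood marker of IFN, stood at 3.87, 1.05 and 1.07 TPM in mock, where library 1 was above the other two. It reached 612, 691 and 706 TPM under IFN (7.93, SE 0.28). IFI6, an inhibitor of flavivirus replication organelles and of cell death, went from 21.9, 14.7 and 15.6 to 1618, 1829 and 1432 TPM (6.48). IFI44 rose by 6.49. IFITM1, which stiffens the plasma membrane against virus fusion, went from 5.83, 7.50 and 3.91 to 536, 613 and 405 TPM (6.28). For these 4 genes every IFN library was above every mock library.

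**Figure D2:**
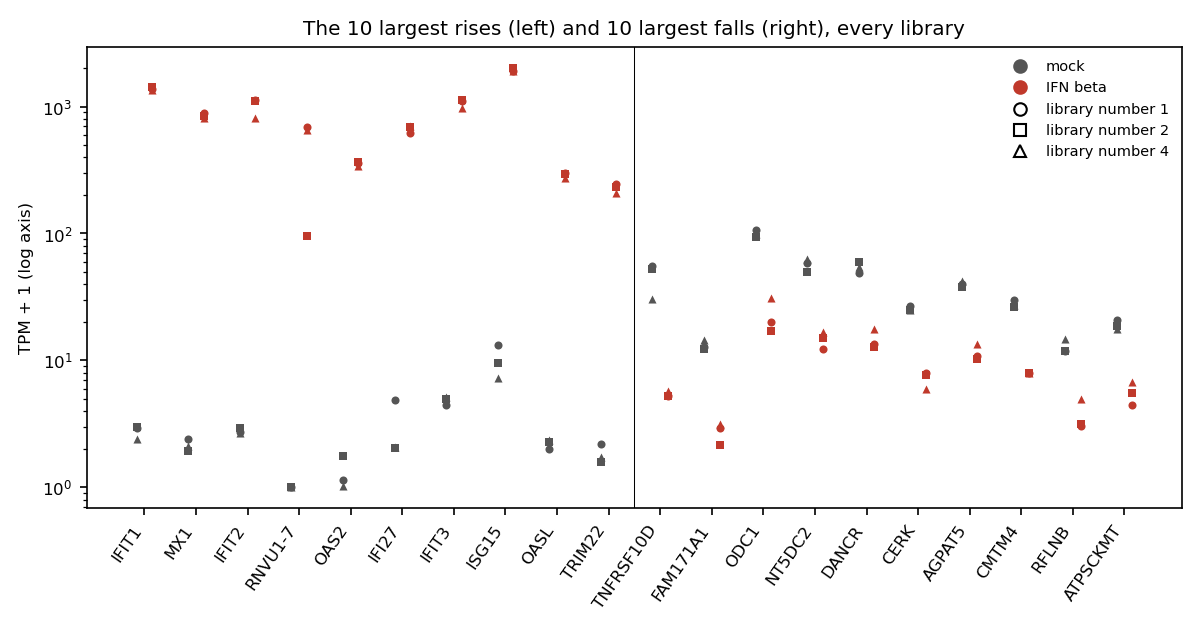
TPM + 1 (log axis) in every library for the 10 largest rises and 10 largest falls among called genes whose groups do not overlap and whose higher group averages at least 5 TPM (grey: mock, red: IFN, marker shape: library number). IFIT1 lies between 1.40 and 1.99 TPM in mock and between 1357 and 1436 TPM under IFN, RNVU1-7 spreads widely over its IFN libraries, and the falls run from -1.79 to -3.04 on the log2 scale.

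The genes that sense foreign nucleic acid rose with the effectors: 8 of 10 were called higher and 0 lower (9 and 1 with the block), with a median of 3.18. IFIH1, the sensor MDA5 for long double-stranded RNA, went from 3.15, 2.55 and 2.80 TPM to 249, 223 and 224 TPM (5.93). RIGI, which recognises RNA with a 5′ triphosphate, went from 3.96, 3.54 and 3.75 to 297, 275 and 243 TPM (5.84). TLR3, the endosomal sensor of double-stranded RNA, rose by 4.82 and reached 51.4 ± 4.87 TPM (mean ± SD, n = 3). IFI16, a nuclear DNA sensor, rose by 4.13 from a mock mean of 10.1 ± 0.316 TPM to 195 ± 28.9 TPM.

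Genes of the signalling chain changed unevenly. Of 9 receptor, kinase and STAT genes, 4 were called higher and 1 lower (5 and 3 with the block and 5 and 0 after rescaling), with a median of 0.33. STAT2 and IRF9, which act in the complex ISGF3, were among the rises. STAT2 went from 10.9, 7.67 and 9.10 to 179, 171 and 128 TPM (3.96) and IRF9, the DNA-binding subunit, from 19.6, 22.8 and 22.3 to 171, 179 and 183 TPM (2.99). JAK2, a kinase of the type II IFN receptor, rose by 1.63 to 17.0 ± 1.64 TPM.

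Among 8 interferon regulatory factors other than IRF9, 3 were called higher and 0 lower. IRF7, which drives later IFN alpha genes, was the strongest: 3.26, 3.77 and 3.08 TPM in mock and 328, 368 and 279 TPM under IFN (6.21, SE 0.16). IRF1, an activator shared with IFN gamma, went from 35.8, 30.4 and 29.9 to 259.8, 253 and 239 TPM (2.93). IRF2, which competes with IRF1 for the same sites, rose by 2.20. The feedback inhibitors were divided, with 2 higher and 3 lower of 10 (4 and 3 with the block). SOCS1, which blocks JAK kinases, stood at 0.425, 0.450 and 0.540 TPM in mock and 23.2, 26.4 and 20.3 TPM under IFN (4.04), and USP18 was the other rise. PTPN11, the phosphatase SHP2, fell from 65.7 ± 3.40 to 42.9 ± 3.26 TPM (-0.61, adjusted p = 0.000471 by limma).

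Nucleic acid and nucleotide restriction factors were called higher in 21 of 24 cases and lower in 0 (median 2.89). CMPK2 and RSAD2 are neighbours whose products work on nucleotides: CMPK2 phosphorylates CMP and UMP, and RSAD2 (viperin) turns CTP into a chain terminator. CMPK2 was listed at 0.338, 0.846 and 0.120 TPM in mock and 152, 153 and 141 TPM under IFN (6.74). RSAD2 went from 0.0430, 0.0620 and 0.0900 to 64.9, 72.2 and 49.7 TPM (5.88). SAMD9L, a factor that restricts poxviruses, rose by 5.62 and DDX60, a helicase linked to RNA sensing, by 5.09. NT5C3A, a pyrimidine nucleotidase, was the most abundant of the list at 34.6 ± 3.80 TPM in mock and 506 ± 12.7 TPM under IFN (3.84).

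Of 15 TRIM ligases, 11 were called higher and 0 lower (11 and 1 with the block). TRIM22, which restricts retroviral and influenza transcription, was at 1.19, 0.587 and 0.727 TPM in mock and 244, 230.3 and 206 TPM under IFN (6.97). TRIM21, the cytosolic antibody receptor, rose by 3.33, TRIM14 by 3.00 and PML, the scaffold of nuclear bodies, by 3.10. TRIM28, a corepressor and the most abundant member, stood at 522 ± 38.4 TPM in mock and 461 ± 16.1 TPM under IFN, with an adjusted p of 0.402. The APOL and SP100 genes were called higher in 8 of 9 cases. They include SP110 (4.74), APOL3 (4.21), APOL6 (4.15) and APOL1, the trypanosome-lytic factor (3.95). APOL2 was the most abundant, at 95.2 ± 28.6 TPM in mock and 531 ± 140.4 TPM under IFN (2.48).

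ADP-ribosyltransferases modify viral and host proteins, and 9 of 15 tested PARP genes with DTX3L were called higher, 0 lower (9 and 2 with the block). PARP10 went from 0.533, 0.545 and 0.599 to 80.5, 79.8 and 48.4 TPM (5.46). PARP14 was the most abundant of the list and rose by 4.24, from 15.9 ± 0.809 to 321 ± 46.3 TPM. PARP12 rose by 3.99 and PARP9, which acts with DTX3L, by 3.93.

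Antigen presentation by HLA class I rose throughout the list: 19 of 19 genes were called higher, between 1.17 and 4.06. TAP1, which carries peptides into the endoplasmic reticulum, went from 20.8, 18.9 and 25.6 to 388, 380.2 and 357 TPM (4.06). PSMB9, a catalytic subunit of the immunoproteasome, went from 13.7, 12.5 and 16.8 to 226, 227 and 220.1 TPM (3.89). NLRC5, the transactivator of class I genes, rose by 3.67 and HLA-F by 3.94. B2M, the invariant light chain of every class I molecule, was abundant before treatment at 1034, 1036 and 1056 TPM and reached 3418, 3457 and 3510.3 TPM (1.73). Reads shared between HLA genes, and between other families with close copies such as IFIT, OAS and APOL, could be split in ways that the sources used here do not describe.

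Secreted signals rose in part. Of 20 chemokine and cytokine genes, 12 were called higher and 1 lower (12 and 0 after rescaling), with a median of 0.84. TNFSF13B, the B cell factor BAFF, went from 0.0430, 0.158 and 0.188 to 24.1, 25.8 and 23.4 TPM (4.49). CXCL10, which draws CXCR3-bearing T cells, was listed at 0 in all 3 mock libraries and at 10.5, 10.9 and 12.1 TPM under IFN, so that it was tested through the IFN libraries alone. CXCL11, a ligand of the same receptor, rose by 3.14 and IL15RA, which presents IL-15, by 2.84. CXCL5, a neutrophil attractant and the most abundant of the list, rose by 0.42, from 963 ± 31.3 to 1285 ± 49.7 TPM.

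Immune checkpoint genes, whose products restrain immune cells, were called higher in 7 of 10 cases and lower in 0. These counts were 7 and 2 with the block and 7 and 1 after quantile normalization. IDO1, which depletes tryptophan, was at 0, 0 and 0.152 TPM in mock and 74.7, 71.5 and 41.7 TPM under IFN (5.88). The IFN library numbered 4 was the lowest of its group. CD274 (PD-L1) went from 1.41, 1.84 and 1.21 to 42.0, 41.8 and 30.4 TPM (3.97). LGALS9 rose by 4.87, CEACAM1 by 3.88 and CD47, the signal that stops phagocytosis, by 1.01. WARS1, the tryptophanyl-tRNA synthetase, rose by 2.75, from 134 ± 7.80 to 920.3 ± 153 TPM, while 2 cytosolic synthetases of 20 were called higher and 2 lower (2 and 9 with the block and 2 and 0 after rescaling). KARS1, the lysyl enzyme, was the other rise, at 0.37.

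Of 14 complement genes, 7 were called higher and 0 lower. SERPING1, the inhibitor of C1, rose by 3.12, CFB of the alternative pathway by 1.95, and the C1 proteases C1R and C1S by 1.50 and 1.17. Of 16 NF-kB genes, 4 were called higher. IKBKE, a kinase of the IFN induction pathway, rose by 1.07, RELA by 0.63 and TBK1 by 0.46. NFKBIA, the inhibitor that NF-kB itself induces, stood at 97.8 ± 3.73 TPM in mock and 178 ± 7.29 TPM under IFN, and these groups did not overlap. Its adjusted p was 0.285 by limma and 0.0183 with the library number as a block. It passed under 4 of 17 alternatives, including the fit that left the other groups out, and not under the other 13. The main fit takes its spread from all 24 libraries, and NFKBIA varied more at 12 h in BOP1-depleted cells. It held 79.6, 79.0 and 207 TPM there in mock and 170, 183 and 307 TPM under IFN.

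Cell death genes were called higher in 14 of 18 cases and lower in 1, and they hold the largest fall of all called genes. XAF1, which antagonises the caspase inhibitor XIAP, was at 0.0420, 0.0580 and 0 TPM in mock and 134, 124 and 100 TPM under IFN (6.85). TNFSF10, the death ligand TRAIL, went from 0.796, 0.954 and 0.974 to 116, 125 and 92.1 TPM (5.87). CASP1, the inflammasome caspase, rose by 4.41 and BIRC3, a ubiquitin ligase that limits death receptor signalling, by 1.46. TNFRSF10D, a decoy receptor for TRAIL that cannot signal death, went the other way. It stood at 54.8, 51.7 and 29.2 TPM in mock and 4.28, 4.27 and 4.72 TPM under IFN, a change of -3.04 (SE 0.24, limma's adjusted p = 2.40e-09). The mock library numbered 4 was well below the other two, and all 3 IFN libraries lay within 1 TPM of each other. FAS, the receptor of another death ligand and a p53 target, rose by 0.99.

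**Figure D3:**
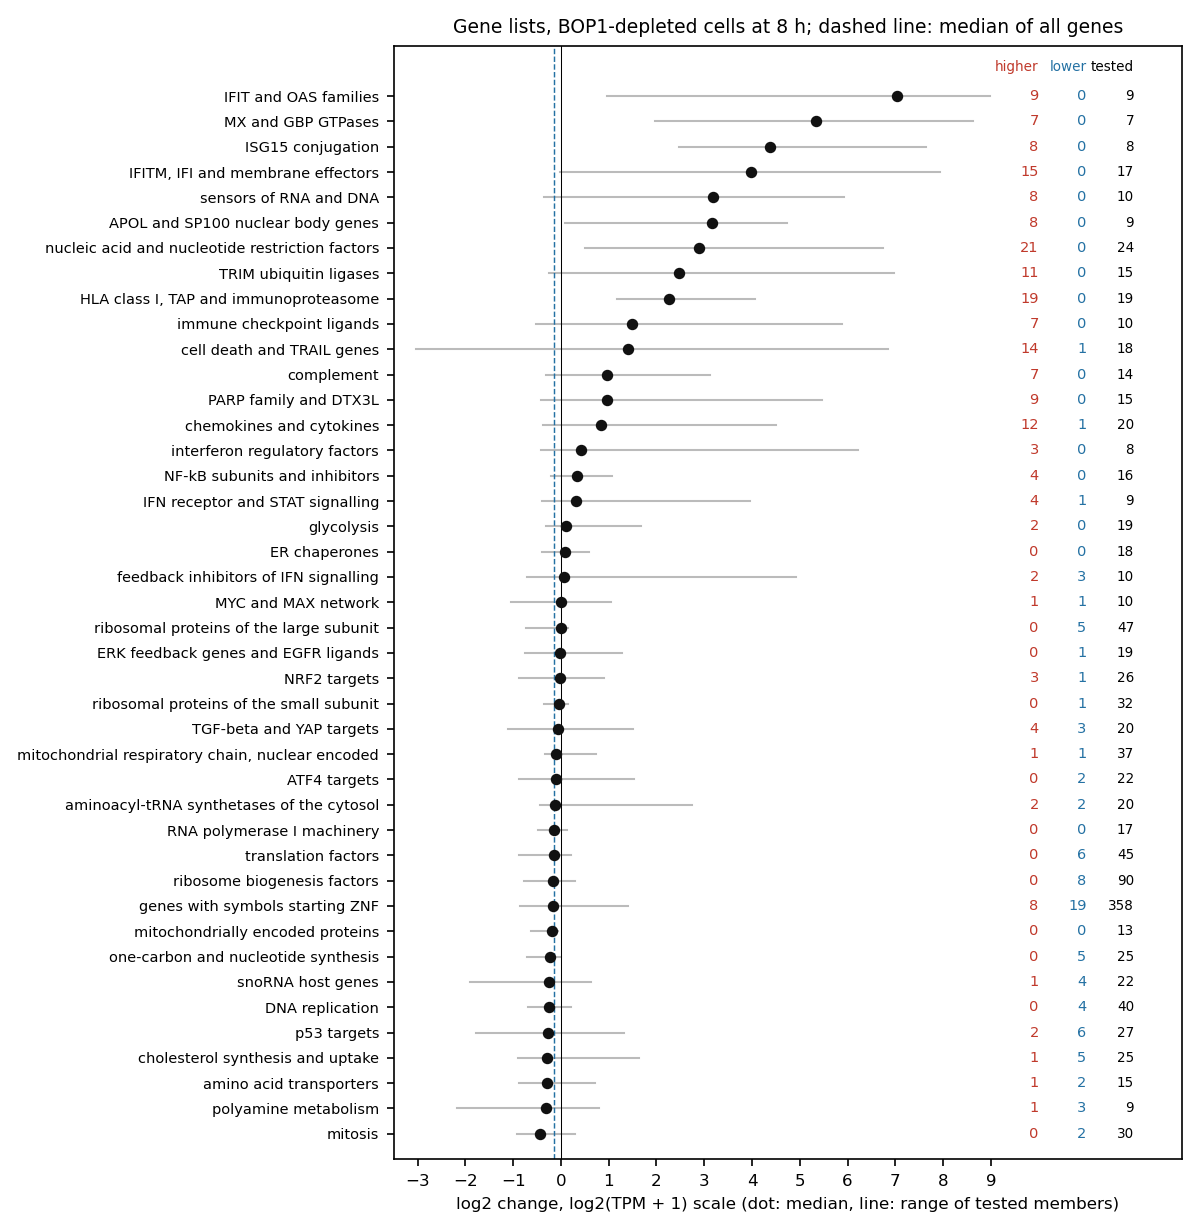
Median (dot) and range (line) of the log2 change, IFN against mock, over the tested members of 42 gene lists, with the numbers called higher, called lower and tested at the right. The dashed line is the median of all genes, -0.14. The lists from IFIT and OAS down to HLA class I have medians of 2.25 or more, and the ribosome, replication and metabolic lists lie nearer to the dashed line. The mitosis list has the lowest of the 42 medians, -0.43.

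The other large falls belong to no common list. FAM171A1, a membrane protein, went from 11.8, 11.4 and 13.5 TPM to 1.93, 1.16 and 2.16 TPM (-2.28). ODC1, the rate-limiting enzyme of polyamine synthesis, went from 106, 92.3 and 98.8 to 19.3, 15.9 and 29.9 TPM (-2.19, SE 0.38). In ODC1 the IFN library numbered 4 was the highest of its group and still below every mock library. NT5DC2 went from 57.9, 48.9 and 62.3 to 11.2, 14.1 and 15.7 TPM (-1.97). DANCR, a long non-coding RNA that hosts small nucleolar RNAs, went from 47.8, 58.7 and 53.7 to 12.5, 11.7 and 16.8 TPM (-1.90). CERK, the ceramide kinase, fell by 1.85, and AGPAT5, an acyltransferase of phospholipid synthesis, fell by 1.81. CMTM4, which stabilises PD-L1 at the cell surface, fell by 1.81. RFLNB, which regulates filamin, fell by 1.80, and ATPSCKMT, a lysine methyltransferase of the mitochondrial ATP synthase, fell by 1.79.

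Among the 9 genes of polyamine metabolism, 1 was called higher and 3 lower (2 and 3 after rescaling and 1 and 5 after quantile normalization). AMD1, which makes the aminopropyl donor, fell by 0.60, from 87.3 ± 4.48 to 57.5 ± 7.22 TPM. OAZ2, an antizyme that inhibits ODC1, fell by 0.41. SAT1, which acetylates polyamines for export, went from 686, 701 and 502 to 1210.1, 1275 and 836 TPM (0.81). Its adjusted p by limma was 0.00752, and it was 0.0548 without mock library 4 and 0.0511 without IFN library 2.

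Because BOP1 RNA was reduced in these cells, the ribosome genes were followed closely. Of 17 genes of the RNA polymerase I machinery 0 were called by limma, with 3 at an unadjusted p under 0.05, and the counts were 0 and 4 with the block and 0 and 1 after quantile normalization. Of 90 ribosome biogenesis factors, 0 were called higher and 8 lower, with a median of -0.16 (0.00 after rescaling). These counts were 2 and 21 with the block, 2 and 1 after rescaling and 1 and 10 after quantile normalization. RPF2, which brings the 5S ribonucleoprotein to the large subunit, was the clearest fall: 31.9, 32.9 and 32.7 TPM in mock and 16.0, 17.9 and 22.4 TPM under IFN (-0.77, SE 0.19). WDR12, which forms the PeBoW complex with BOP1 and PES1, stood at 54.2, 46.2 and 52.3 TPM in mock and 30.6, 34.4 and 41.3 TPM under IFN (-0.52). Its adjusted p by limma was 0.0336, and 0.150 after rescaling. Without single libraries it was 0.118 (mock 1), 0.0948 (mock 4), 0.141 (IFN 1) and 0.0973 (IFN 2).

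Of 47 large-subunit genes 5 were called lower, and of 32 small-subunit genes 1 was, beside 10.4% of all genes, and 0 were called higher. Rescaling left 1 and 0 lower, and the block fit called 7 and 2 lower, and quantile normalization 6 and 2. The 2 lists had medians of -0.01 and -0.03, which were 0.15 and 0.13 after rescaling. RPL23, which can also bind the p53 ligase MDM2, held 2144, 2541 and 2233 TPM in mock and 1247, 1312 and 1629.8 TPM under IFN (-0.73, SE 0.13). RPL5, part of the 5S ribonucleoprotein, changed by -0.41, with an adjusted p of 0.00131 by limma and of 0.130 after rescaling. RPS19 was the most abundant small-subunit transcript, at 6173 ± 120.1 TPM in mock and 6608 ± 699 TPM under IFN (adjusted p = 0.576 by limma).

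Of 45 translation factors, 0 were called higher and 6 lower (1 and 12 with the block, 1 and 2 after rescaling and 0 and 16 after quantile normalization), with a median of -0.14 (0.02 after rescaling). EIF4B, which helps unwind the mRNA leader, went from 226, 231 and 209.7 to 124, 111 and 129.5 TPM (-0.87). EIF3L, a subunit of the initiation scaffold eIF3, fell by 0.54, from 425 ± 28.0 to 292 ± 11.9 TPM. In both genes every IFN library lay below every mock library. The libraries hold RNA only and measure no translation.

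The cell cycle lists held calls at or under the background of 10.4%, with medians below the -0.14 of all genes. Of 40 replication genes 4 were called lower (median -0.26, and -0.10 with 1 call after rescaling). Of 30 mitosis genes 2 were called lower (median -0.43, and -0.28 with 1 call after rescaling). The block fit called 16 and 17 lower, beside its own background of 23.2%. In bulk RNA, fewer cells in a phase and less RNA per cell cannot be told apart. CCNE1, the cyclin that starts S phase, went from 17.4, 14.2 and 18.8 to 10.5, 8.68 and 10.8 TPM (-0.69, adjusted p = 0.0168 by limma). Its adjusted p was 0.0596 without mock library 1, 0.0768 without mock library 4 and 0.0851 without IFN library 2. BUB1B, a spindle checkpoint kinase, went from 14.3, 16.9 and 20.7 to 8.15, 6.90 and 11.1 TPM (-0.92, adjusted p = 0.0127 by limma). Without mock library 4 that value was 0.0680, and without IFN library 2 it was 0.0755.

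Of 27 p53 targets, 2 were called higher and 6 lower (3 and 12 with the block and 2 and 3 after rescaling), with a median of -0.27. ZMAT3, an RNA-binding tumour suppressor, went from 7.40, 6.95 and 6.03 to 1.11, 1.20 and 1.56 TPM (-1.77). PHLDA3, which inhibits AKT, fell by 0.67. BAX, the pore-forming death effector, stood at 203 ± 29.7 TPM in mock and 166 ± 22.7 TPM under IFN, with an adjusted p of 0.308 by limma and 0.00826 in the block fit.

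Of 25 sterol genes, 1 was called higher and 5 lower (2 and 13 with the block, 2 and 2 after rescaling and 1 and 8 after quantile normalization). STARD4, which carries cholesterol through the cytosol, went from 32.0, 28.8 and 26.0 to 99.0, 91.0 and 83.7 TPM (1.62). MVK, the mevalonate kinase, fell by 0.90 (from 42.8 ± 1.73 to 22.5 ± 2.44 TPM). FDPS, which makes farnesyl diphosphate, stood at 320.5 ± 65.2 TPM in mock and 254 ± 66.4 TPM under IFN, with an adjusted p of 0.303 by limma and 0.00375 in the block fit. Of 25 genes of one-carbon and nucleotide synthesis, 0 were called higher and 5 lower (0 and 9 with the block and 0 and 1 after rescaling). IMPDH1, which commits purines to GTP, fell by 0.62, from 54.3 ± 1.77 to 35.1 ± 1.39 TPM. Of 15 amino acid transporters, 1 was called higher and 2 lower (1 and 6 with the block), and SLC38A1, a glutamine carrier, fell by 0.66.

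In the TGF-beta and YAP list 4 of 20 genes were called higher and 3 lower. ID3, a target of BMP signalling, rose by 0.77. The receptor gene TGFBR1 fell by 1.11, and the ligand gene TGFB2 fell by 0.78. Of 26 NRF2 targets 3 were called higher and 1 lower (3 and 6 with the block and 2 and 4 after quantile normalization), and CBR1, a carbonyl reductase, rose by 0.77. Of 22 ATF4 targets 0 were called higher and 2 lower (4 and 6 with the block), and PSPH of serine synthesis fell by 0.81. Of 19 genes of ERK feedback and EGFR ligands 0 were called higher and 1 lower (1 and 5 with the block and 2 and 1 after rescaling). The fall was that of the transcription factor ETV4 (-0.70). Of 10 genes of the MAX network 1 was called higher and 1 lower (3 and 3 with the block, 2 and 0 after rescaling and 2 and 0 after quantile normalization), and the rise was that of MAX itself (0.72). Of 18 chaperones of the endoplasmic reticulum 0 were called by limma, with 1 at an unadjusted p under 0.05, and the counts were 3 and 1 with the block and 4 and 0 after rescaling.

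Nuclear genes of the respiratory chain were called in 1 case higher and 1 lower of 37 (1 and 10 with the block, 1 and 0 after rescaling and 1 and 9 after quantile normalization). The rise was NDUFA9 of complex I, from 99.6, 95.9 and 103 to 173, 158 and 164 TPM (0.72). Of 13 protein genes of the mitochondrial genome 0 were called by limma, with 0 at an unadjusted p under 0.05, and the block fit called 0 higher and 0 lower. Glycolysis had 2 rises of 19 and 0 falls (8 and 0 with the block and 1 and 0 after quantile normalization). The 358 tested ZNF genes held 8 rises and 19 falls (11 and 54 with the block and 11 and 7 after rescaling), both below the shares of 6.54% and 10.4% over all genes. ZNF296 rose by 1.41, ZNF107 by 1.28 and ZNF618 by 0.95, while ZNF595 fell by 0.86.

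Long non-coding RNAs made up 54 of the rises and 105 of the falls, of 1163 tested, beside 847 and 1326 of 12046 protein-coding genes. USP30-AS1 was listed at 0 in all 3 mock libraries and at 18.3, 20.6 and 18.4 TPM under IFN, and it too was tested through the IFN libraries alone. IRF1-AS1 rose by 3.51 and PSMB8-AS1 by 3.09. The counting's use of strand is not given in the sources used here, so reads of IRF1-AS1 and IRF1, or of PSMB8-AS1 and PSMB8, may not be separable. Beside DANCR, the falls include LINC02870 (-1.22), CLN8-AS1 (-1.10) and PCCA-DT (-1.07). Of 22 host genes of small nucleolar RNAs, 1 was called higher and 4 lower (1 and 10 with the block and 0 and 6 after quantile normalization), and SNHG14 fell by 0.73.

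RNVU1-7, a variant of the U1 small nuclear RNA that has near-identical copies, was among the 10 largest rises. It was listed at 0 in all 3 mock libraries and at 688, 94.2 and 649.6 TPM under IFN, with IFN library 2 far below the other two, and it was tested through the IFN libraries alone. The adjusted p was 0.0236 by limma. That p was 0.0639, 0.0569 and 0.0609 without mock libraries 1, 2 and 4, and 0.0756 and 0.0659 without IFN libraries 1 and 4. The call was also lost where no filter on low values was set. The siBOP1 libraries at 12 h were listed at 0, 0 and 759 TPM in mock and 0, 0 and 44.0 TPM under IFN. The siFLuc libraries at 8 h were listed at 146, 0 and 0 TPM in mock and 0, 0 and 222 TPM under IFN. RNVU1-7 was thus listed above 0 without IFN in 1 library of each of these mock groups.

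Some abundant genes with large shifts in TPM are given here. Among genes that rose by at least 1, B2M, MT2A, ISG15, IFI6 and TGM2 had the highest IFN means. MT2A, a metallothionein that binds zinc, went from 1201, 1199.9 and 794 to 3403, 3470.0 and 1921 TPM (1.44). TGM2, a protein cross-linking transglutaminase, went from 421, 308 and 228 to 1755, 1664 and 1082 TPM (2.24). In MT2A and TGM2 the library numbered 4 was the lowest of each group, and the groups did not overlap. KRT7, a keratin of simple epithelia, changed by -0.37, from 1756 ± 152 to 1357 ± 85.9 TPM, with an adjusted p of 0.00149 by limma and of 0.0870 after rescaling. Mitochondrially encoded MT-RNR2 lost more in mean TPM than KRT7. It stood at 15576, 18635 and 18743 TPM in mock and at 12932, 14009 and 12327 TPM under IFN.

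The 117 genes of 8 effector and antigen presentation lists together held 0.344%, 0.339% and 0.335% of all TPM in mock and 3.20%, 3.23% and 2.88% under IFN. The means differed by 2.76 percentage points, a description, since the lists were chosen with earlier results known. Of the 117 genes 108 were tested, and 15 of these were under 1 TPM in every mock library. Without those 15 the shares were 0.344%, 0.338% and 0.335% in mock and 3.10%, 3.13% and 2.80% under IFN. The genes called lower held 8.25%, 8.48% and 8.41% in mock and 5.97%, 5.91% and 6.12% under IFN, a description, since these genes were chosen by their fall. Mitochondrially encoded RNA held 14.7%, 15.3% and 14.2% in mock and 13.7%, 13.9% and 10.9% under IFN. The difference of -1.93 percentage points was -0.96 without IFN library 4, and the exact permutation test over all 6 libraries gave the smallest p it allows, 0.1 (two-sided, n = 3). The IFN library numbered 4 had the lowest share of both sets of rising and mitochondrial transcripts in its group, and the part of these shares in single changes was not tested. With mitochondrial genes left out of the total, the difference in the effector lists was 3.17 percentage points.

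**Figure D4:**
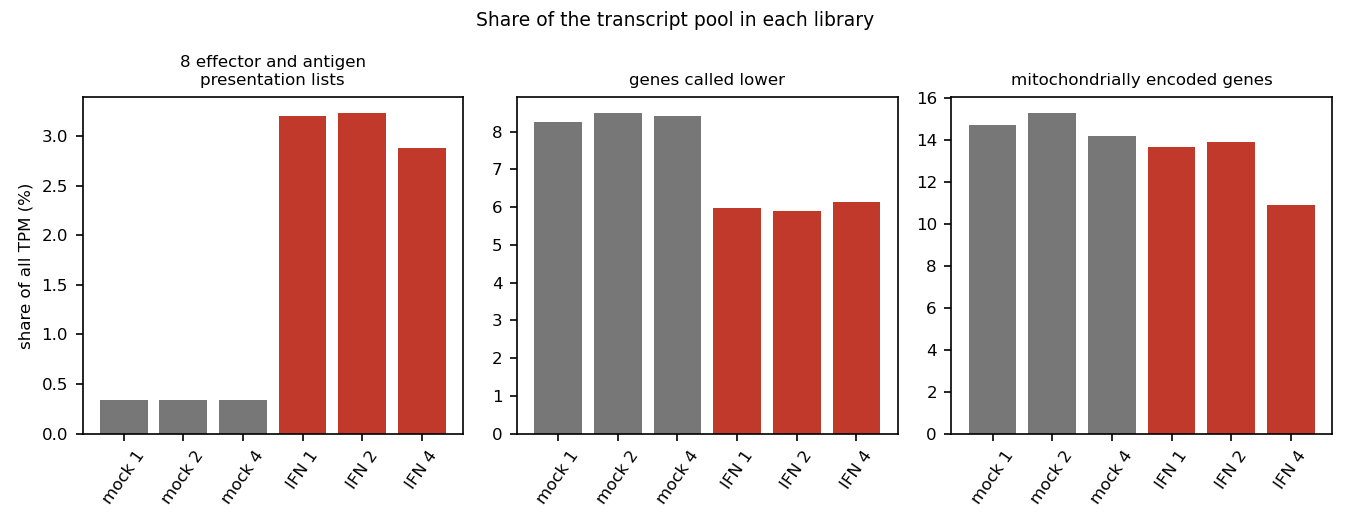
Share of all TPM (percent, bars from 0) in each of the 6 libraries for 8 effector and presentation lists, for genes called lower and for mitochondrially encoded genes. The effector lists lie between 0.335% and 0.344% in mock and between 2.88% and 3.23% under IFN, the genes called lower between 8.25% and 8.48% in mock and between 5.91% and 6.12% under IFN, and IFN library 4 has the lowest mitochondrial share at 10.9%.

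Between 14168 and 14509 genes reached 1 TPM in the mock libraries and between 13884 and 14064 in the IFN libraries. The 10 most abundant genes held 15.2% to 15.5% of TPM in mock and 12.7% to 14.3% under IFN. Neither range overlaps between the groups, and the part of these differences in the results was not tested. Pearson r of log2 values within a group lay between 0.980 and 0.988 across genes. Sequencing depth cannot be read from TPM, so values carry no counting interval. All 6 epithelial markers were at 1 TPM or more in both groups, with sums of 5729 to 6348 TPM in mock and 5974 to 6727 TPM under IFN. Of 6 leukocyte markers 1 reached 1 TPM, with sums of 3.56 to 4.42 TPM in mock and 2.70 to 4.25 TPM under IFN, and CD3E and MS4A1 were listed at 0. Of 4 endothelial markers 0 reached 1 TPM, with sums of 0.065 to 0.376 TPM in mock and 0.151 to 0.346 TPM under IFN, and the sums of 5 fibroblast markers were 7.69 to 19.9 TPM in mock and 7.89 to 16.5 TPM under IFN.

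Genes that rose by at least 1 included neighbours. Runs of at least 3 adjacent tested protein-coding genes numbered 13 and held 46 of the 429 such genes, which were 3.56% of the 12046 placed. Coordinates are those of GENCODE 29 on GRCh38. On chr10:89213569-89421001 lie LIPA, IFIT2, IFIT3, IFIT1 and IFIT5, with changes from 1.24 to 8.98. On chr1:89006666-89272804 lie GBP3, GBP1, GBP2, GBP4 and GBP5, from 1.97 to 5.80. The region chr12:112906777-113011723 holds OAS1, OAS3 and OAS2 (4.66 to 8.12), and chr2:230167293-230544090 holds SP110, SP140, SP140L and SP100 (1.62 to 4.74). The genes PARP9, DTX3L and PARP14 adjoin at chr3:122527924-122730840 (3.41 to 4.24), and PPM1K, HERC6 and HERC5 at chr4:88257620-88506163 (3.47 to 5.47). The region chr6:32813767-32859585 holds the peptide supply genes TAP2, PSMB8, PSMB9 and TAP1. These runs are made largely of duplicated families, whose reads may be shared.

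The series concerns codon use, so codon features of the coding sequences were described. The median GC content at the last position of codons was 58.5% for protein-coding genes called higher, 62.6% for genes called lower and 58.0% for genes not called. The median coding length was 1404, 1443 and 1407 bases in the same order, and the median 3′ UTR length 977, 1191 and 884 bases. Across 11947 genes, Spearman's rho with the log2 change was -0.03 for that GC content, -0.05 for coding length and -0.04 for 3′ UTR length. Genes are not independent replicates, and these are descriptions.

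The same treatment in siFLuc cells at 8 h, and in siBOP1 cells at 12 h, was read over the same 14273 genes. In siFLuc cells 896 genes (6.28%) were called higher and 815 (5.71%) lower. At 12 h in siBOP1 cells 1108 (7.76%) were called higher and 1217 (8.53%) lower. Of the rises at 8 h in BOP1-depleted cells, 784 were also called in siFLuc cells, which is 83.9% of the 934 here and 87.5% of those there. Of the falls, 612 were shared, 41.2% of the falls here and 75.1% of those there. With 12 h, 822 rises (88.0% of those at 8 h, 74.2% of those at 12 h) and 702 falls (47.3% and 57.7%) were shared. These comparisons have no library in common with the one described here, though all enter the same fit.

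The difference between the responses was tested directly, as an interaction. With limma, 0 of 14273 genes passed for BOP1-depleted against siFLuc cells at 8 h (0.0% in either direction), with 273 at an unadjusted p under 0.05 and a smallest adjusted p of 1.00. For 8 h against 12 h, 0 genes (0.0%) passed, with 525 at an unadjusted p under 0.05 and a smallest adjusted p of 0.106. With the library number as a block, 3 genes passed as positive and 1 as negative for 8 h against 12 h, and 0 passed for the siRNA. P-values spread evenly would put a share of 0.05 of the genes under 0.05, and the counts of 273 and 525 were below that share. With the library number as a block the counts at an unadjusted p under 0.05 were 704 for the siRNA and 1395 for 8 h against 12 h. The count of 704 was just below that share, and the count of 1395 was above it. The absence of calls in the main fit, and for the siRNA with the block, does not show that the responses were the same. A call in one setting and none in another likewise does not by itself mark a gene as different between them. IFIT1 changed by 8.72 in siFLuc cells and 8.69 at 12 h, beside 8.98 here. ISG15 changed by 7.41 and 7.63, beside 7.64. IDO1 changed by 5.69 and 6.05, beside 5.88, and TNFRSF10D by -3.06 and -1.96, beside -3.04. For ODC1 the values were -2.14 and -1.83, beside -2.19, and for DANCR -2.04 and -2.65, beside -1.90. RPL23 changed by -0.84 and -1.02, beside -0.73.

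**Figure D5:**
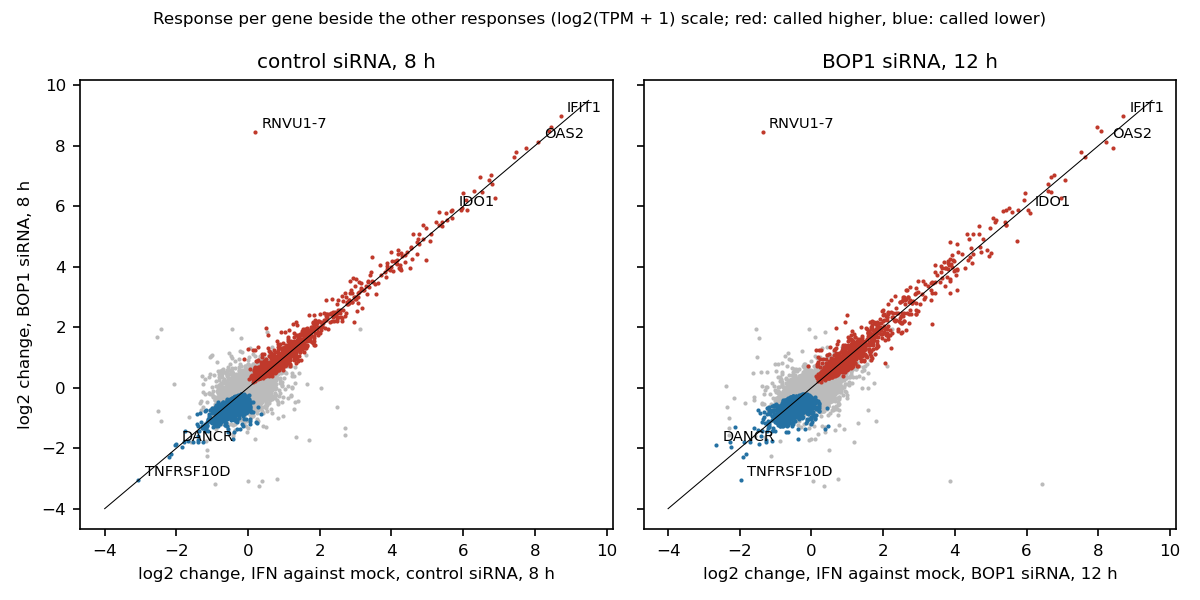
Log2 change of each of 14273 genes in BOP1-depleted cells at 8 h (vertical) against the change in control cells at 8 h (left) and in BOP1-depleted cells at 12 h (right), with the line of equal change. Genes called higher (red) lie along the line in both panels, where Pearson r across genes is 0.891 and 0.868, and RNVU1-7 stands apart from it.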

How the data were processed

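The deposited values are TPM per gene (each column sums to the same total), made by the authors before deposit; the quantifier, aligner, build and annotation are not given in the sources used here. Per the labels' protocols, libraries came from a stranded mRNA kit. Columns were matched by name: those numbered 4 have no such number among the labels' replicates (1 to 3) and stand only for their group. Gene names came from a symbol table (60340 of 60609 rows), and positions from GENCODE 29 on GRCh38 (58502 rows, 41779 with the same version).

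Genes reaching 1 TPM in 3 or more of the 6 libraries were tested on log2(TPM + 1) with limma 3.58.1 (R 4.3.3; eBayes with trend), 1 mean per group over all 24 libraries, no block, and a Benjamini-Hochberg threshold of 0.05. The fit was also run on simulated data, with an outcome that is not reported here. Single quantities had a two-sided exact permutation test. Python 3.11.15 made the summaries. Same-numbered mock and IFN libraries deviated together (r = 0.150, 0.139 and 0.248 across genes for the numbers 1, 2 and 4); this pairing comes from the column numbers and the labels do not state it. A fit with the number as a block is given where it changes a call or moves a count by over 1.5 times.

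The comparison, the 42 gene lists and the rule for named genes were chosen with earlier results of these data known. The rule takes BOP1; the 10 largest rises and falls among called genes without overlap and with at least 5 TPM in the higher group; up to 4 called members and the most abundant member of each list; and the leading genes silent in mock, in abundance, in TPM lost and among long non-coding RNAs. Of 186 genes it selects, 132 are described by name. The other 54 (36 called, of which 31 lost the call under at least 1 alternative, and 18 not called) enter the list counts only, apart from the levels of MT-RNR2. Some of these are not reported here. Alternatives were another pseudocount, 3 filters, 2 rescalings, eBayes without trend, only the groups compared, the block, the libraries numbered 1 and 2 alone, and each library left out. The block with rescaling was added after seeing the data.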

Additional observations from a re-analysis of the deposited data

How the results depend on the processing

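Of the 162 called genes that the naming rule selects, 124 kept direction and call under all 17 alternatives, 38 lost the call under at least 1, and 0 changed direction. The count of rises (934) stayed between 769 and 1342 except with the replicate block plus rescaling, where it was 2086; leaving out 1 library gave 771 to 950. The count of falls (1484) was 715 after median-of-ratios rescaling, 3314 with the replicate block, 2262 with the libraries numbered 1 and 2 alone, and 824 to 1271 with 1 library left out (827 without mock library 1, 824 without IFN library 2). Rescaling kept 715 of the 1484 falls and all 934 rises, and rises made up 64.7% of calls then, 44.4% after quantile normalization, 28.8% with the block and 60.0% with block and rescaling. The cause of the other shifts was not tested.

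The interaction with the siRNA held 0 calls except without a filter on low values, where 3 genes were positive and 1 negative. The interaction with time held 1 positive and 1 negative call without the filter, 1 positive call with eBayes without trend, 3 positive and 1 negative with the replicate block, and 1 negative with the libraries numbered 1 and 2 alone. Leaving out 1 library gave 0 calls in both. BOP1 changed by -0.16 with the replicate block (adjusted p = 0.421 by limma) and by -0.01 after rescaling, and was called under none of the alternatives. The share of the effector lists differed by 3.17 percentage points without mitochondrial genes and by 2.70 to 2.88 with 1 library left out. The block changed no call of a described gene beyond NFKBIA, FDPS and BAX, which passed with it. Depth is unknown, so counting error could not be given.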
